A study of Mus musculus with 9 samples.

Results

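The proteasome genes of sorted granulocyte-macrophage progenitors (GMPs) were compared between 3 Dicer1 genotypes. They were taken as every gene whose array symbol begins with Psma, Psmb, Psmc, Psmd, Psme, Psmf or Psmg followed by a digit. The rule found 49 of the 18193 genes named by a single symbol, and 48 of the 49 were bright enough to be tested. It chose by name alone and used no measured value, but earlier results of these data were known when it was set. The same holds for the other gene lists used below, so counts beside the shares of all genes are descriptions. The untested gene is Psmb11, the catalytic subunit of the cortical thymus, whose signal lay between 0.532 and 7.69 on the 9 arrays. The symbol rule also took in Psmc3ip, a partner protein of meiotic recombinases, and Psme3ip1, which binds the nuclear activator protein Psme3. Neither is a proteasome subunit, and both are given apart. Psme2, the partner of Psme1 in the interferon-inducible activator, shares its probe set with another symbol on this array and was not a member.

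The progenitors came from bone marrow of irradiated C57Bl/6 recipients that had received fetal liver cells of embryonic day 13.5. Donors carried Cebpa-Cre, the reporter R26-LSL-Eyfp and floxed Dicer1 alleles, and one and the same allele description stands on all 9 arrays, controls included. The genotype labels were Dicer wild type, Dicer heterozygous deletion (written Dicer -/wt in the design) and Dicer null (written Dicer fl/fl), with 3 arrays each. Recipients were 6 to 8 weeks old at irradiation with 8.5 Gy and were analysed 6 to 10 weeks later. As a model this has limits: Cre follows the Cebpa gene, so recombination begins in progenitors that express it, and the EYFP sort selects cells that recombined the reporter without reading the Dicer1 locus. Cells of 1 fetal liver typically went into 2 recipients, and the labels do not tie an array to a liver, so p-values measure the spread between arrays and part of that spread may be technical.

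Dicer1 encodes the ribonuclease that releases mature microRNAs from their precursors. The proteasome degrades proteins that carry ubiquitin chains. Its 20S core is a barrel of stacked rings, the outer ones built from alpha subunits that gate the entry and the inner ones from beta subunits, of which Psmb5, Psmb6 and Psmb7 cut the substrate. A 19S cap binds ubiquitin, unfolds the substrate with a ring of ATPases (Psmc1 to Psmc6) and feeds it into the core. Dedicated chaperones assemble the core (Psmg1 to Psmg4 and Pomp) and the base of the cap (Psmd5, Psmd9 and Psmd10). Interferon can raise Psmb8, Psmb9 and Psmb10, which replace Psmb5, Psmb6 and Psmb7 to form the immunoproteasome, a producer of peptides for MHC class I molecules. Here all 3 gave signal in wild-type cells already, with means of 1122, 618 and 571. Transcription of proteasome genes is raised as a group by Nfe2l1 (Nrf1) through antioxidant response elements when proteasome activity is short.

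Promoter letters were read for the genes on which the results turn. The window was the 250 bases before the annotated gene start in the RefSeq promoter table (GRCm38.p6), which held 44 windows for 41 of the 49 genes. The 8 genes without a window were Psma8, Psmb1, Psmb2, Psmb7, Psmc3, Psmd3, Psmd7 and Psmg2. Both strands were searched for 4 motifs, and no matches of different motifs overlapped in these windows. The antioxidant response element core, TGACNNNGC, was in 5 of the 44 windows (11.4%) and in 10.2% of all 32851 windows of the table. The CCAAT box, CCAAT, was in 36.4% against 33.8%, the core of the interferon-stimulated response element, GAAANNGAA, in 6.82% against 7.13%, and the core of the gamma-activated site, TTCNNNGAA, in 4.55% against 7.02%. A match describes letters and is no evidence of binding. Of the 5 genes with an antioxidant response element core, Psmd12 was called higher in null against wild type and Psmc6 in null against heterozygous. Psmb5 and Psmb6 were not called, nor was Psmd9, which was at -0.36 in null against wild type. A part of the element in these changes was not tested. The 5 windows are shown with the core in capitals and up to 20 bases on each side, because this element is the known handle of Nrf1 on proteasome genes. They lie at chr14:54618014-54618062 (minus strand) for Psmb5, chr11:70525328-70525356 (plus strand) for Psmb6, chr14:45329577-45329625 (plus strand) for Psmc6, chr11:107479278-107479309 (plus strand) for Psmd12 and chr5:123228139-123228187 (plus strand) for Psmd9.
Psmb5: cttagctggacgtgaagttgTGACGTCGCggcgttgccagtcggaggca
Psmb6: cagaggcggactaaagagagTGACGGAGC
Psmc6: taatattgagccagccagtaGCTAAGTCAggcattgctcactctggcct
Psmd12: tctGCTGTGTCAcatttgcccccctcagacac
Psmd9: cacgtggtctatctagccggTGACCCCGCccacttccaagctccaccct

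The windows of Psmg3 and Psmg4, the members with the largest falls, held none of the 4 motifs and are printed whole, with nothing in capitals. They span chr5:139826895-139827144 (minus strand) and chr13:34162714-34162963 (plus strand).
Psmg3: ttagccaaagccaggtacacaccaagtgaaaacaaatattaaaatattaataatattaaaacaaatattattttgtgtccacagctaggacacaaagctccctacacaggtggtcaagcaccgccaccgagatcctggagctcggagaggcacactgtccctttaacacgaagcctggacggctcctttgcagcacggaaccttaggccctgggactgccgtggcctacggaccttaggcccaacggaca
Psmg4: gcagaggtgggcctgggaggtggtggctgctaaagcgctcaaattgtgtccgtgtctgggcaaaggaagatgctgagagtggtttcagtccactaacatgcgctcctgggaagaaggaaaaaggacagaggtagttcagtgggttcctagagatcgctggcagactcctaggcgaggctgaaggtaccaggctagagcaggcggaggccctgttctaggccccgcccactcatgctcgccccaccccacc

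Psmb9 and the peptide transporter gene Tap1 are neighbours that are read in opposite directions, and the stretch between their starts measures 225 bases at chr17:34187331-34187555 (minus strand). It is printed on the strand of Psmb9, which begins just after the last base, while Tap1 begins just before the first base on the other strand. The capitals mark its 1 CCAAT box, read on the opposite strand.
Psmb9: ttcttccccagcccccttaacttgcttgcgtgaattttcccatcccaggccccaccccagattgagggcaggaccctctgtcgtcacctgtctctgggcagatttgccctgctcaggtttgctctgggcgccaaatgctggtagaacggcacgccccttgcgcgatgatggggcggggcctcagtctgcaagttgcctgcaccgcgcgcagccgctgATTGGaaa
Psmb8, which stands on the far side of Tap1, had the only gamma-activated site core among the immunoproteasome genes. It is in capitals in the stretch chr17:34198078-34198126 (plus strand).
Psmb8: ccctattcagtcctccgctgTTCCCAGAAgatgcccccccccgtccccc

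Values are MAS5 signals, a linear brightness per probe set, and changes are differences of log2(signal + 12), which understate the change of dim genes. Signals of different genes come from different probes and are not compared as levels. A gene is called where its limma p-value, adjusted by Benjamini-Hochberg over the 12347 genes tested, is under 0.05. The GMP label was met, since all 10 GMP markers were tested and the primary granule genes Mpo, Ctsg and Prtn3 were bright on every array, with lowest signals of 7202, 7547 and 3811. The summed signal of the GMP markers ran from 24483 to 27300 in wild type, 25049 to 29135 in heterozygous and 25285 to 27306 in null samples. Cd3d and Cd2, markers of T cells, read at most 2.09 and 3.46. Dicer1 read 244, 228 and 223 on the wild-type arrays, 169, 201 and 187 on the heterozygous arrays and 115, 101 and 97.2 on the null arrays, and its change in null against wild type was -1.07 (SE 0.11, adjusted p = 1.88e-05) and in heterozygous against wild type -0.31 (SE 0.11, adjusted p = 0.217). With all probe sets of Dicer1 averaged the latter was -0.51 and passed (adjusted p = 0.0174). Where its probes lie relative to the floxed part is not given. Signals of arrays of 1 genotype correlated at 0.984 to 0.989 and those of different genotypes at 0.972 to 0.985 (log2 values over the genes tested, a description). Wild-type replicate 2 stood apart: it read 2610 for Xist and 1.13 for the Y-linked Eif2s3y where the other 8 arrays read at most 30.2 for Xist and at least 622 for Eif2s3y, although the description of every sample says C57BL/6 and female. C57BL/6 is also the recipients' strain, and the sex of the donors is not given. Its 6 erythroid markers summed to 1087, against at most 443.7 on any other array. Among the results followed across the alternatives, those that lose their call without it are named with their value.

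In null against wild-type progenitors 5 of the 48 proteasome genes changed, 4 lower and 1 higher. The lower genes were the assembly chaperone genes Psmg4, Psmg3 and Psmd10 and the cap subunit gene Psmd8, and the higher gene was the cap subunit gene Psmd12. Across all genes 8.09% were called lower and 7.6% higher. The members' share called lower was near the background and their share called higher was below it. The median change of the 48 was -0.071, beside -0.043 for all genes tested, and 15 of the 48 (31.2%) had an unadjusted p under 0.05, beside 29% of all genes. With each array centred on its median signal, 4 members were higher and 3 lower, so the balance of directions depended on scaling. Without wild-type replicate 2 the count was 4, with Psmd8 no longer called (adjusted p = 0.0663).

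In heterozygous against wild-type progenitors a single member changed, the cap subunit gene Psmd6, which fell. Over all genes 0.697% were called lower and 0.697% higher. The median change of the members was 0.028, beside -0.008 for all genes, and 5 of the 48 (10.4%) had an unadjusted p under 0.05, beside 12.9% of all genes. In null against heterozygous progenitors 7 members changed. Psmg3, Psmg4, Psmg1, Psmd8 and Psmc3ip were lower and Psmc6 and Psma8 higher, where 7.49% of all genes were called lower and 6.84% higher. The median change was -0.055, beside -0.029 for all genes, and 17 of the 48 (35.4%) had an unadjusted p under 0.05, beside 27.9% of all genes. Centring on array medians gave 3 higher and 3 lower. The comparisons share arrays and are not independent. The count of 7 fell to 2 without heterozygous replicate 1 or without null replicate 3, and to 4 without null replicate 1.

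**Figure D1:**
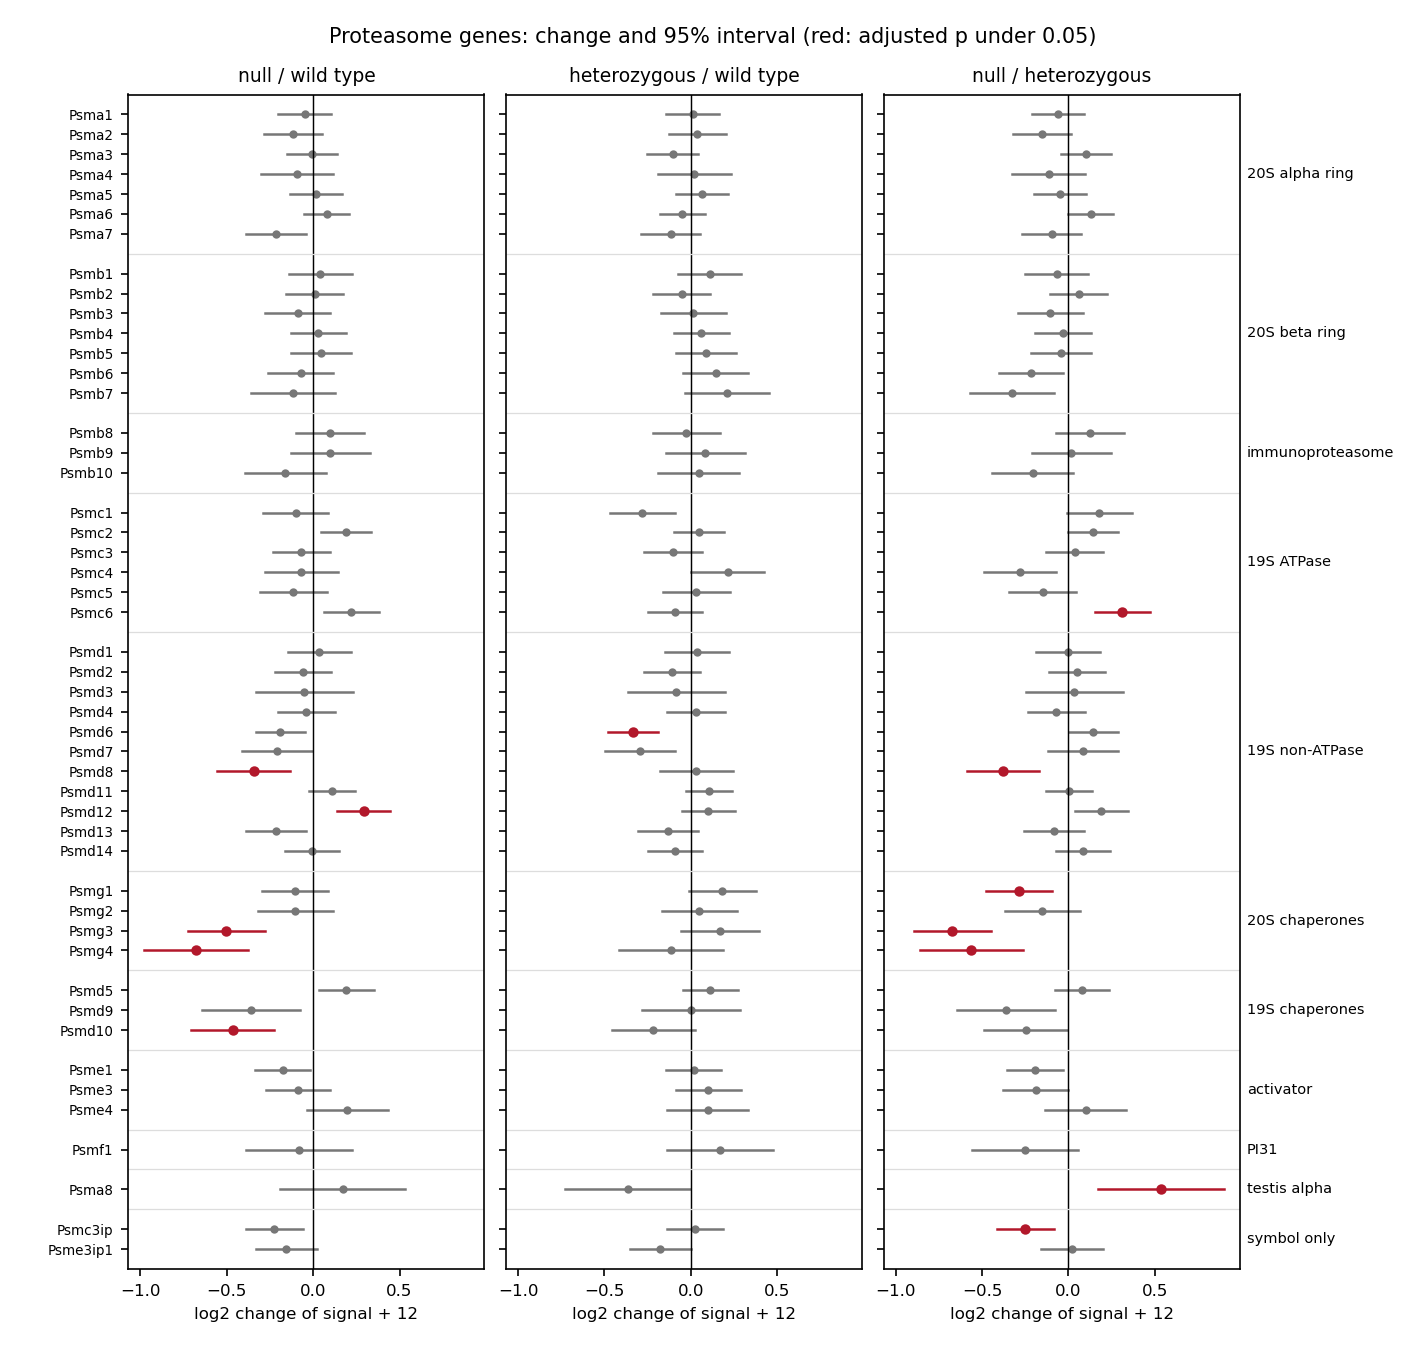
Change of each of the 48 tested proteasome genes on the log2(signal + 12) scale in the 3 comparisons, with the 95% interval of the limma fit, which is not adjusted for the number of genes, and genes grouped by role. Red marks an adjusted p under 0.05, met by 5, 1 and 7 genes from left to right, and none of the red genes is among Psma1 to Psma7, Psmb1 to Psmb7 or the immunoproteasome genes.

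The constitutive ring genes of the 20S core showed no called gene in any comparison of the main fit. The testis alpha subunit Psma8, which was called in null against heterozygous, is given apart with the tissue forms. The 7 alpha genes, Psma1 to Psma7, and the 7 constitutive beta genes, Psmb1 to Psmb7, gave 0 calls of 14 by limma each time. Of all genes 8.09% were called lower and 7.6% higher in null against wild type. In heterozygous against wild type the share was 0.697% each way, and in null against heterozygous 7.49% and 6.84%. An unadjusted p under 0.05 was reached by 1 of the 14 in null against wild type, 0 in heterozygous against wild type and 2 in null against heterozygous. The shares of all genes were 29%, 12.9% and 27.9% in the same order. In null against wild type the changes of the 14 ran from -0.21 for Psma7 to 0.079 for Psma6, with a median of -0.028. All 14 of their 95% intervals lay between -0.39 and 0.22, and the corresponding outer bounds were -0.29 and 0.45 in heterozygous against wild type and -0.57 and 0.26 in null against heterozygous. A missed threshold does not show equal expression, and the bounds give the size of change that the arrays could not resolve.

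Psma7 was the ring gene nearest to a call in null against wild type. It read 1755, 1552 and 1619 on the wild-type arrays, 1632, 1453 and 1456 on the heterozygous arrays and 1349, 1521 and 1371 on the null arrays. The null arrays lay below the wild-type arrays and overlapped the heterozygous ones, with a change of -0.21 (SE 0.08, adjusted p = 0.0858). Psma6 read 4964, 4716 and 4638 on the wild-type arrays, 4729, 4572 and 4537 on the heterozygous arrays and 5031, 5203 and 4896 on the null arrays. Its null arrays lay above all heterozygous ones, by 0.13 (SE 0.061, adjusted p = 0.186), without a call. Psma2 was the reverse case, at -0.15 (SE 0.078, adjusted p = 0.218) in null against heterozygous with its null arrays below. Psma3 had heterozygous arrays below all wild-type arrays, at -0.11 (SE 0.068, adjusted p = 0.571), and again no call. For Psma1, Psma4 and Psma5 the groups overlapped in all 3 comparisons, and their changes in null against wild type were -0.05, -0.094 and 0.016. The groups also overlapped throughout for the structural beta genes Psmb1, Psmb2, Psmb3 and Psmb4, whose changes were 0.042, 0.0087, -0.09 and 0.03. The signs of the 14 changes, 6 above and 8 below 0, depended on scaling: centring on array medians gave 8 above and 6 below, and quantile normalization 3 above and 11 below.

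The catalytic genes gave no call. Psmb5, which encodes the chymotrypsin-like site, read 806, 841 and 790.0 on the wild-type arrays, 934, 834 and 827 on the heterozygous arrays and 782, 881 and 854 on the null arrays. The 3 groups overlapped, and the change in null against wild type was 0.045 (SE 0.08, adjusted p = 0.77). Psmb6, the caspase-like site, read 684, 791 and 698 on the wild-type arrays, 846, 820.4 and 737 on the heterozygous arrays and 643, 707 and 712 on the null arrays. Its null values lay below all heterozygous values, with a difference of -0.22 (SE 0.087, adjusted p = 0.119) that did not pass the test. Psmb7, the trypsin-like site, read 174, 169 and 169 on the wild-type arrays, 221, 174 and 205 on the heterozygous arrays and 177, 144 and 151 on the null arrays. Its difference in null against heterozygous was -0.33 (SE 0.11, adjusted p = 0.0715), and it passed without heterozygous replicate 2 (adjusted p = 0.0474) or without null replicate 1 (adjusted p = 0.0476). Null replicate 1 was the highest of the null arrays and overlapped the heterozygous range.

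The absence of calls in the constitutive ring genes held for the brightest probe set of each gene under the main scaling. With quantile normalization Psma6 was called higher in null against heterozygous, at 0.21 (adjusted p = 0.0123). With all probe sets averaged Psma7 was called lower in null against wild type, at -0.32 (adjusted p = 0.0135). Among the 54 other probe sets of the members, 44 were above the filter, and in a separate limma fit over all probe sets above it 3 were higher and 3 lower in null against wild type. One of them was the second probe set of Psma7, an alpha subunit, which gave -0.42 (adjusted p = 0.00317) where the brightest gave -0.21 (adjusted p = 0.0858 in the fit over genes). The others belonged to the cap genes Psmc6, Psmd6, Psmd11 and Psmd13, the last with 2. In null against heterozygous the second probe set of Psmb3, a beta subunit, gave -0.39 (adjusted p = 0.0252), while the brightest gave -0.10. In the same comparison the second probe set of Psma7 gave -0.35 (adjusted p = 0.0123), while the brightest gave -0.098. For both genes the 2 probe sets gave changes of the same sign and of different size.

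The immunoproteasome genes showed no called change. By limma 0 of the 3 were called in each comparison and 0 had an unadjusted p under 0.05. In null against wild type 7.6% of all genes were called higher, 8.09% lower, and 29% had an unadjusted p under 0.05. The same shares were 0.697%, 0.697% and 12.9% in heterozygous against wild type, and 6.84%, 7.49% and 27.9% in null against heterozygous. Psmb8, the inducible counterpart of Psmb5, read 1059.7, 1235 and 1072 on the wild-type arrays, 1124, 1072 and 1104 on the heterozygous arrays and 1069, 1201 and 1344 on the null arrays. Null replicate 3 was the highest array and null replicate 1 lay inside the wild-type range, and the change was 0.098 (SE 0.091, adjusted p = 0.532) with an interval of -0.097 to 0.29. Psmb9, the counterpart of Psmb6, read 567, 732 and 554 on the wild-type arrays, 707, 616 and 629 on the heterozygous arrays and 639, 628 and 708 on the null arrays. Wild-type replicate 2 was its highest array, and the change was 0.10 (SE 0.11, adjusted p = 0.596) with an interval of -0.13 to 0.33. Psmb10, the counterpart of Psmb7, read 498, 578 and 638 on the wild-type arrays, 616, 644 and 510.0 on the heterozygous arrays and 509, 473 and 541 on the null arrays. Its groups overlapped as well, and the change was -0.16 (SE 0.11, adjusted p = 0.363) with an interval of -0.40 to 0.071. A second, dimmer probe set of Psmb8 gave 0.34 (adjusted p = 0.255).

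Because each inducible subunit takes the place of a constitutive one, the within-array log2 difference of each pair was compared between genotypes in 9 exact two-sided permutation tests. With 3 arrays against 3 the smallest p these tests can give is 0.1, so none could reach 0.05. In null against wild type the difference changed by 0.054 for Psmb8 minus Psmb5, 0.17 for Psmb9 minus Psmb6 and -0.046 for Psmb10 minus Psmb7, and the groups overlapped in all 3 (exact p = 0.5, 0.2 and 0.8). In null against heterozygous samples it was higher without overlap for Psmb8 minus Psmb5, by 0.17, and for Psmb9 minus Psmb6, by 0.23 (exact p = 0.1 for both). The adjusted p over the 9 tests was 0.45 or more throughout.

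Genes of class I antigen processing, the pathway that the immunoproteasome serves, were higher in null cells in part. Of 12 tested, 5 were higher and 0 lower in null against wild type, where 7.6% of all genes were called higher. The list, like the others, was chosen with earlier results of these data known, so this count is a description. All 12 changes were above 0 under the main scaling and the 3 alternatives, with a median of 0.23 under the main one beside -0.043 for all genes. In null against heterozygous 5 were higher and 0 lower, where 6.84% of all genes were called higher. In heterozygous against wild type limma called 0 of 12, with 5 changes above 0 and 7 below. An unadjusted p under 0.05 was reached by 6 of the 12, beside 12.9% of all genes. Tap1, the transporter subunit that shares the printed stretch with Psmb9, was among the 5 and is named outside the naming rule, after its values were seen. It read 199, 312 and 187 on the wild-type arrays, 189.8, 218 and 272 on the heterozygous arrays and 324, 343 and 425 on the null arrays, so every null array exceeded every other array, and the change was 0.65 (SE 0.17, adjusted p = 0.0219). Its call was lost in 5 of 22 alternative fits, among them those without wild-type replicate 1 or 3 or null replicate 3 (adjusted p = 0.0838 to 0.0955). The neighbouring transporter gene Tap2 was at 0.047 (SE 0.12, adjusted p = 0.84), with overlapping groups. Against heterozygous arrays its null values were higher without overlap, by 0.48 (SE 0.12, adjusted p = 0.014).

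B2m, the light chain of class I molecules, rose by 0.48 (SE 0.077, adjusted p = 0.000989), the heavy chain genes H2-K1 and H2-D1 by 0.59 (SE 0.099, adjusted p = 0.00128) and 0.53 (SE 0.12, adjusted p = 0.00646), and Pdia3, a chaperone of class I loading, by 0.50 (SE 0.063, adjusted p = 0.000162). The null values of these 4 lay above all wild-type values, which was so for 14.1% of all genes. Heavy chain genes resemble each other closely, so their probe sets may share signal. Averaged over all its probe sets H2-D1 gave 0.19 (adjusted p = 0.317) and Tap1 0.20 (adjusted p = 0.343), and both calls were lost. Whether the class I genes differ from Psmb8, Psmb9 and Psmb10 in their change was not tested.

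**Figure D2:**
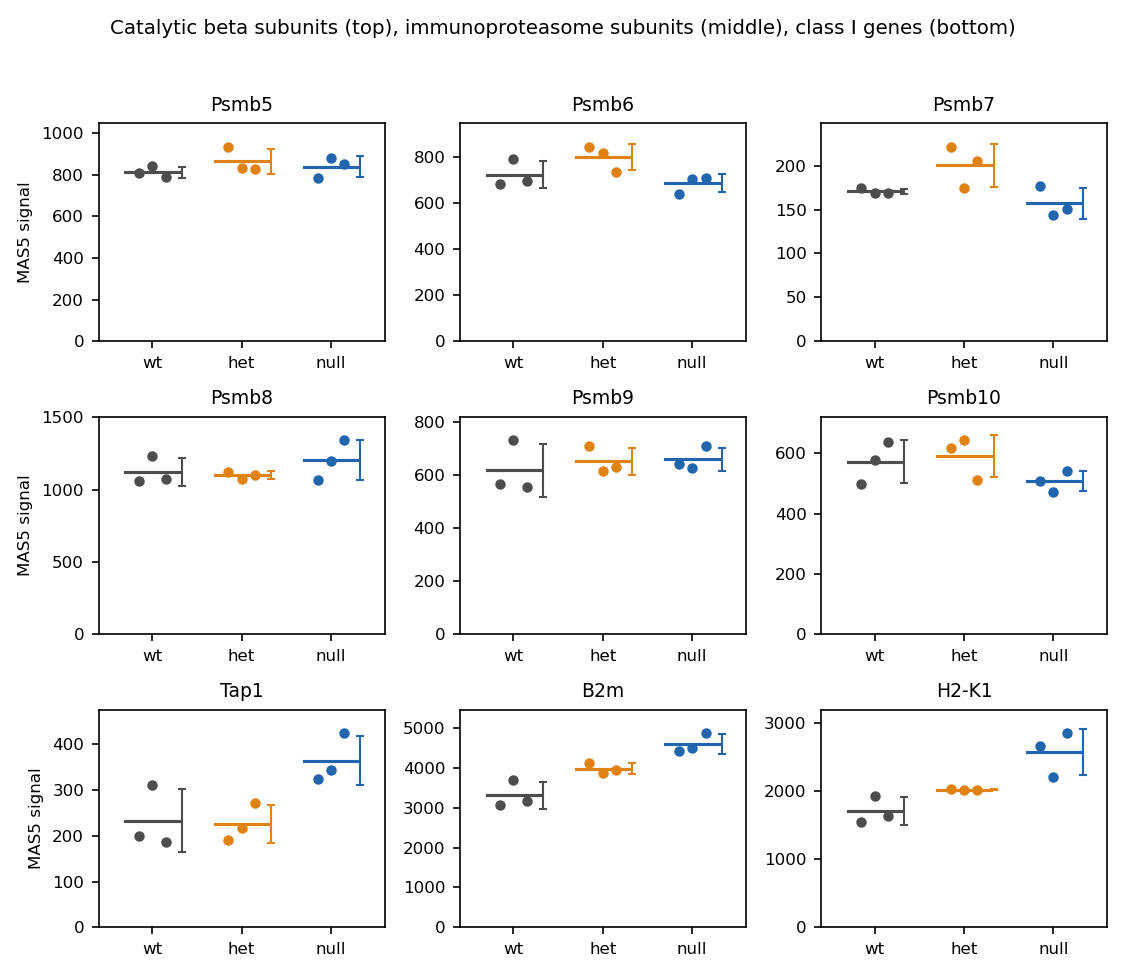
MAS5 signal on each of the 9 arrays for the constitutive catalytic genes (top), their inducible counterparts (middle) and 3 class I genes (bottom), with points in the order of replicates 1 to 3, lines for group means and bars for 1 SD (n = 3). The null points of Tap1, B2m and H2-K1 lie above all other points, while those of the 6 catalytic genes overlap the wild-type points.

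Of 13 tested interferon regulator genes, 4 were higher in null than wild type and 1 was lower. Among all genes 7.6% were called higher and 8.09% lower. Irf9, a subunit of the interferon-activated transcription factor, rose by 0.67 (SE 0.12, adjusted p = 0.00218). Irf1, a transcription factor known to act on Psmb9 and Tap1, rose by 0.31 (SE 0.093, adjusted p = 0.038). The kinase gene Jak1 was at 0.32 (SE 0.096, adjusted p = 0.0377) and the receptor chain gene Ifngr2 at 0.51 (SE 0.16, adjusted p = 0.038). The lower gene was Irf8, named after its values were seen, at -0.37 (SE 0.12, adjusted p = 0.0436). With each array centred on its median signal 0 of the 13 were called lower, so this call was lost. Whether it held with single arrays left out was not tested. Nlrc5, the activator of class I genes, was at 0.13 (SE 0.17, adjusted p = 0.677). The call of Irf9 was kept in all 22 alternatives. That of Irf1 was lost in 8 of them, including the omission of wild-type replicate 1 or 3, heterozygous replicate 2 or 3, or null replicate 1 or 3 (adjusted p = 0.0503 to 0.153). That of Jak1 was lost in 8, including wild-type replicate 1 or 3, heterozygous replicate 2, or null replicate 1 or 2 (adjusted p = 0.054 to 0.148). That of Ifngr2 was lost in 9, including wild-type replicate 2 or 3, heterozygous replicate 2, or null replicate 1 or 2 (adjusted p = 0.0553 to 0.133, with 0.131 for wild-type replicate 2).

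In the 19S cap 2 of 17 subunit genes were called in null against wild type, 1 in heterozygous against wild type and 2 in null against heterozygous. In both comparisons of null cells this was 1 higher and 1 lower, where 7.6% and 6.84% of all genes were called higher and 8.09% and 7.49% lower. In heterozygous against wild type the 1 was lower, where 0.697% of all genes were. Centring on array medians gave 3 higher and 0 lower in null against wild type in place of 1 and 1. Of the 6 ATPase genes, Psmc1 to Psmc6, limma called 0 in null against wild type (2 at an unadjusted p under 0.05), 0 in heterozygous against wild type (2) and 1 in null against heterozygous. Of all genes 29% reached that p in null against wild type and 12.9% in heterozygous against wild type. Psmc6, the ATPase of the called difference, read 1587, 1668 and 1472 on the wild-type arrays, 1435, 1557 and 1440.4 on the heterozygous arrays and 1774, 1803 and 1931 on the null arrays. All null values lay above all others, and it was higher by 0.31 (SE 0.074, adjusted p = 0.0123) in null against heterozygous and by 0.22 in null against wild type, where the adjusted p was 0.0588. Its second probe set gave changes of the same sign, 0.58 (adjusted p = 0.0033) in null against heterozygous and 0.40 (adjusted p = 0.0202) in null against wild type. Without null replicate 3 the brightest probe set was no longer called in null against heterozygous (adjusted p = 0.0574). The same call was lost without the intensity trend in limma (adjusted p = 0.0657). Psmc1 was lower in heterozygous cells without overlap, at -0.28 (SE 0.087, adjusted p = 0.16) against wild type, and Psmc4 higher, at 0.21 (SE 0.098, adjusted p = 0.378). Neither passed. Psmc2 had null arrays above all wild-type arrays, and for Psmc3 the groups overlapped throughout, at -0.068 in null against wild type. The remaining ATPase genes spanned -0.12 for Psmc5 to 0.19 for Psmc2 in null against wild type.

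Of the 11 non-ATPase cap genes, Psmd1 to Psmd4, Psmd6 to Psmd8 and Psmd11 to Psmd14, 1 was higher and 1 lower in null against wild type. Of all genes 7.6% were called higher and 8.09% lower. Psmd12, a scaffold subunit of the lid, read 838, 898 and 841 on the wild-type arrays, 927, 929 and 910.0 on the heterozygous arrays and 1047, 1020.4 and 1094 on the null arrays. Each null value exceeded each heterozygous value, which in turn exceeded each wild-type value, and the changes were 0.29 (SE 0.071, adjusted p = 0.0126) in null and 0.10 (SE 0.071, adjusted p = 0.614) in heterozygous against wild type. The call was lost without null replicate 3 (adjusted p = 0.0561) and without the intensity trend in limma (adjusted p = 0.0547). Psmd8, also of the lid, read 486, 495 and 490.3 on the wild-type arrays, 545, 488 and 475 on the heterozygous arrays and 333, 398 and 426 on the null arrays. Wild-type and heterozygous arrays were close together and all null arrays lower, by -0.35 (SE 0.098, adjusted p = 0.0278) against wild type and -0.38 (SE 0.098, adjusted p = 0.0189) against heterozygous. The first of these calls was lost without wild-type replicate 1, 2 or 3 or null replicate 1 (adjusted p = 0.061 to 0.116). The second was lost without heterozygous replicate 1 or null replicate 1 (adjusted p = 0.082 to 0.0837). Both were also lost without the intensity trend in limma (adjusted p = 0.0773 and 0.0637), and the first with centring on array medians (adjusted p = 0.081).

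Psmd6, another lid subunit, read 3261, 3535 and 3566 on the wild-type arrays, 2757, 2678 and 2775 on the heterozygous arrays and 2878, 3026 and 3176 on the null arrays. Every heterozygous array was below every wild-type and every null array, and the fall in heterozygous against wild type was -0.33 (SE 0.067, adjusted p = 0.0204). In null against wild type it was -0.19 (SE 0.067, adjusted p = 0.0691). A second, dimmer probe set of the gene went the other way, with 0.38 in heterozygous (adjusted p = 0.052) and 0.29 in null (adjusted p = 0.0436) against wild type, so the direction of Psmd6 depends on the probe set. The heterozygous call was also lost without wild-type replicate 2 or 3 or any 1 of the heterozygous arrays (adjusted p = 0.0575 to 0.12, with 0.0666 for wild-type replicate 2).

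Psmd11 and Psmd13, lid subunits as well, were not called by their brightest probe sets, at 0.11 (SE 0.062, adjusted p = 0.267) and -0.21 (SE 0.081, adjusted p = 0.0905) in null against wild type. The second probe set of Psmd11 rose by 0.43 (adjusted p = 0.00441) in null and by 0.41 (adjusted p = 0.0282) in heterozygous against wild type. Both of the next brightest probe sets of Psmd13 fell, at -0.31 (adjusted p = 0.0481) and -1.11 (adjusted p = 0.00264) in null against wild type, the latter from a dim probe set with a mean signal of 33.7. Psmd7, the partner of the deubiquitinase Psmd14 in the lid, was at -0.29 (SE 0.094, adjusted p = 0.178) in heterozygous against wild type, with all 3 heterozygous values below the wild-type values, and did not pass. Psmd14 itself was at -0.0064 (SE 0.073, adjusted p = 0.965) in null against wild type. Psmd1 and Psmd2, the large scaffold subunits of the base, and the ubiquitin receptor gene Psmd4 were at 0.037, -0.058 and -0.041, and the lid gene Psmd3 at -0.051, all with overlapping groups.

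The assembly chaperone genes held the 3 largest falls among called members in null against wild type. Of the 4 core chaperone genes, Psmg3 and Psmg4 were called lower in null against wild type, where 8.09% of all genes were. Psmg1, Psmg3 and Psmg4 were called lower in null against heterozygous, where 7.49% of all genes were. In the latter comparison the null values of all 4 lay below the heterozygous values, which was so for 18% of all genes. Psmg3 and Psmg4 encode the pair that helps to build the alpha ring, and Psmg1 and Psmg2 a second pair that acts on the same ring. Psmg3 read 266, 299 and 279 on the wild-type arrays, 367, 302 and 288 on the heterozygous arrays and 196, 203 and 186 on the null arrays. The null arrays were below all 6 others, with changes of -0.50 (SE 0.10, adjusted p = 0.00509) against wild type and -0.67 (SE 0.10, adjusted p = 0.000898) against heterozygous.

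Psmg4 read 105, 127 and 132 on the wild-type arrays, 137, 107 and 92.2 on the heterozygous arrays and 73.2, 71.0 and 69.0 on the null arrays. Its null arrays spanned a narrow range below all others, with -0.68 (SE 0.14, adjusted p = 0.005) against wild type and -0.56 (SE 0.14, adjusted p = 0.0155) against heterozygous. The call against heterozygous was lost without heterozygous replicate 1 or null replicate 3 (adjusted p = 0.0514 to 0.0774). Both genes have a second, dim probe set: that of Psmg3 gave 0.16 (adjusted p = 0.701) in null against wild type and that of Psmg4 was below the filter. With all probe sets averaged the calls in null against wild type were lost, at -0.17 for Psmg3 and -0.27 for Psmg4 (adjusted p = 0.488 and 0.187), and so were those in null against heterozygous, at -0.41 and -0.23.

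Psmg1 read 498, 545 and 557 on the wild-type arrays, 657, 596 and 569 on the heterozygous arrays and 453, 517 and 517 on the null arrays. The heterozygous arrays were the highest and the null arrays overlapped the wild-type ones, with -0.29 (SE 0.09, adjusted p = 0.0461) in null against heterozygous and -0.10 (SE 0.09, adjusted p = 0.496) in null against wild type. The call lay close to the threshold and was lost in 12 of the 22 alternatives, among them the omission of wild-type replicate 3 or of any 1 heterozygous or null array (adjusted p = 0.051 to 0.165). Psmg2 was at -0.10 (SE 0.10, adjusted p = 0.561) and -0.15 (SE 0.10, adjusted p = 0.374) in the same 2 comparisons and was not called.

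Among the chaperones of the cap base, Psmd10 (gankyrin) read 199.7, 206 and 204 on the wild-type arrays, 204, 168 and 151 on the heterozygous arrays and 136, 147 and 148 on the null arrays. The wild-type arrays spanned a narrow range, the null arrays lay below them without overlap, and 2 of the heterozygous arrays lay between, with -0.47 (SE 0.11, adjusted p = 0.0118) in null against wild type. That call was kept in all 22 alternatives, with adjusted p from 0.00634 to 0.0446. Psmd10 lies on the X chromosome. It read 206 on wild-type replicate 2, the array with high Xist, beside 199.7 and 204 on the other wild-type arrays, and an effect of donor sex was not tested. Psmd9 was at -0.36 (SE 0.13, adjusted p = 0.0805), with null values below all wild-type values, a pattern met by 19% of all genes, and did not pass. Psmd5 was at 0.19 (SE 0.074, adjusted p = 0.0964), with null above heterozygous above wild-type arrays and no call.

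**Figure D3:**
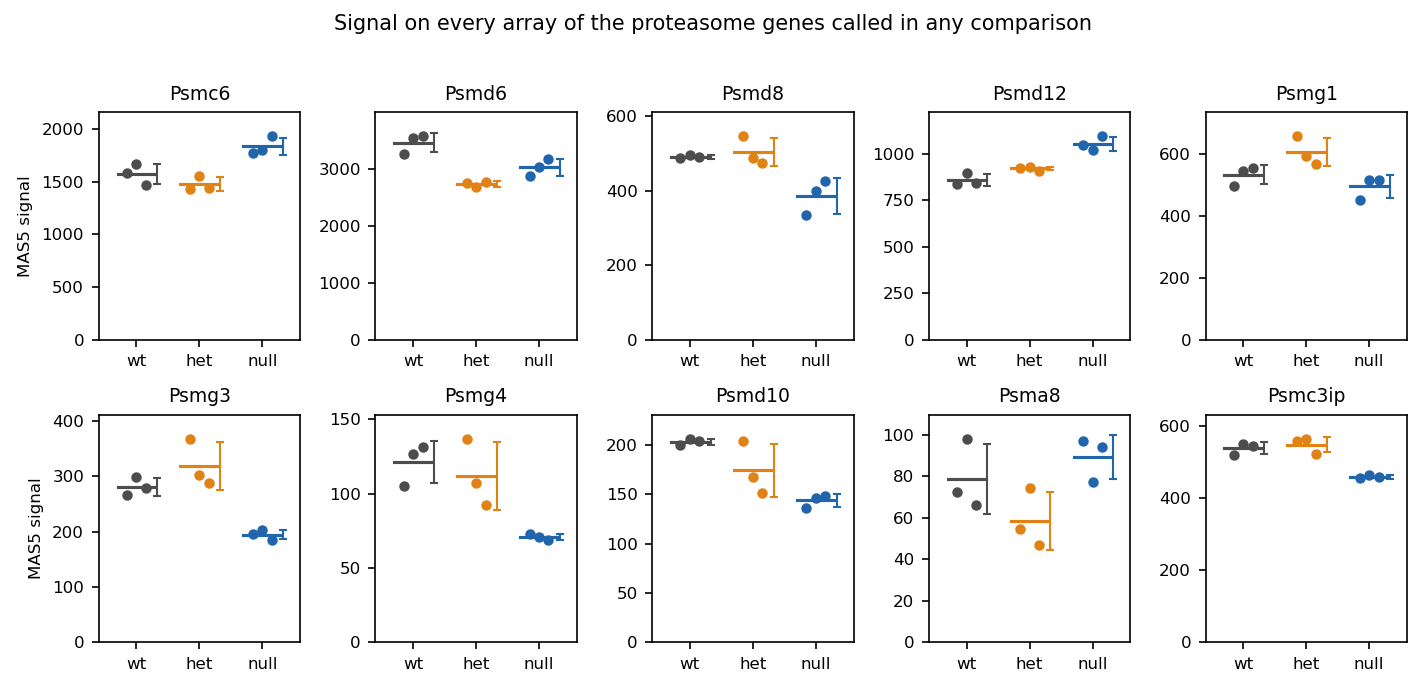
MAS5 signal on each array of the 10 member genes called in at least 1 comparison, with points in the order of replicates 1 to 3, lines for group means and bars for 1 SD (n = 3). Null points lie below the wild-type points for Psmd6, Psmd8, Psmd10, Psmg3, Psmg4 and Psmc3ip and above them for Psmc6 and Psmd12.

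Activators and regulators of the core gave no calls in the main fit. Psme1, a subunit of the interferon-inducible activator, was at -0.18 (SE 0.074, adjusted p = 0.13) in null against wild type, with null values below all wild-type values. Quantile normalization called it lower there, at -0.23 (adjusted p = 0.0497), and in null against heterozygous, at -0.23 (adjusted p = 0.0492). In null against wild type Psme3, the nuclear activator, was at -0.088 (SE 0.087, adjusted p = 0.561). Psme4, the activator known from sperm and DNA repair, was at 0.20 (SE 0.11, adjusted p = 0.259). Without null replicate 2 Psme4 was called higher in that comparison, at 0.33 (adjusted p = 0.0449). By limma 0 of the 3 were called in any comparison of the main fit. An unadjusted p under 0.05 was reached by 1 in null against wild type, 0 in heterozygous against wild type and 2 in null against heterozygous. Among all genes 29%, 12.9% and 27.9% reached that p in the same order. The shares of all genes called lower were 8.09%, 0.697% and 7.49%, and those called higher 7.6%, 0.697% and 6.84%. Psmf1, the inhibitor-like protein PI31, was at -0.082 (SE 0.14, adjusted p = 0.763). Psma8, the alpha subunit of the testis, was dim, with signals of 72.2, 97.8 and 65.9 on the wild-type arrays, 54.5, 74.2 and 46.9 on the heterozygous arrays and 97.0, 77.1 and 93.9 on the null arrays. Null values lay above the heterozygous ones and overlapped wild type, and the difference in null against heterozygous was 0.54 (SE 0.17, adjusted p = 0.0483). The call was lost in 9 of the 22 alternatives. Among them was the omission of wild-type replicate 1, heterozygous replicate 1 or 3, or null replicate 1 or 3 (adjusted p = 0.0585 to 0.167).

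Of the genes that share only the symbol, 1 was called lower in null against heterozygous, where 7.49% of all genes were called lower. Psmc3ip read 519, 549.9 and 544 on the wild-type arrays, 556, 562 and 523 on the heterozygous arrays and 454, 464 and 456 on the null arrays. All null values were lower than all others, by -0.25 (SE 0.077, adjusted p = 0.0425) against heterozygous and -0.22 (SE 0.077, adjusted p = 0.0616) against wild type, and only the first passed. It was lost in 10 of the 22 alternatives, among them the omission of wild-type replicate 3 or any 1 heterozygous or null array (adjusted p = 0.0551 to 0.139). Psme3ip1 was at -0.15 (SE 0.082, adjusted p = 0.236) in null against wild type.

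**Figure D4:**
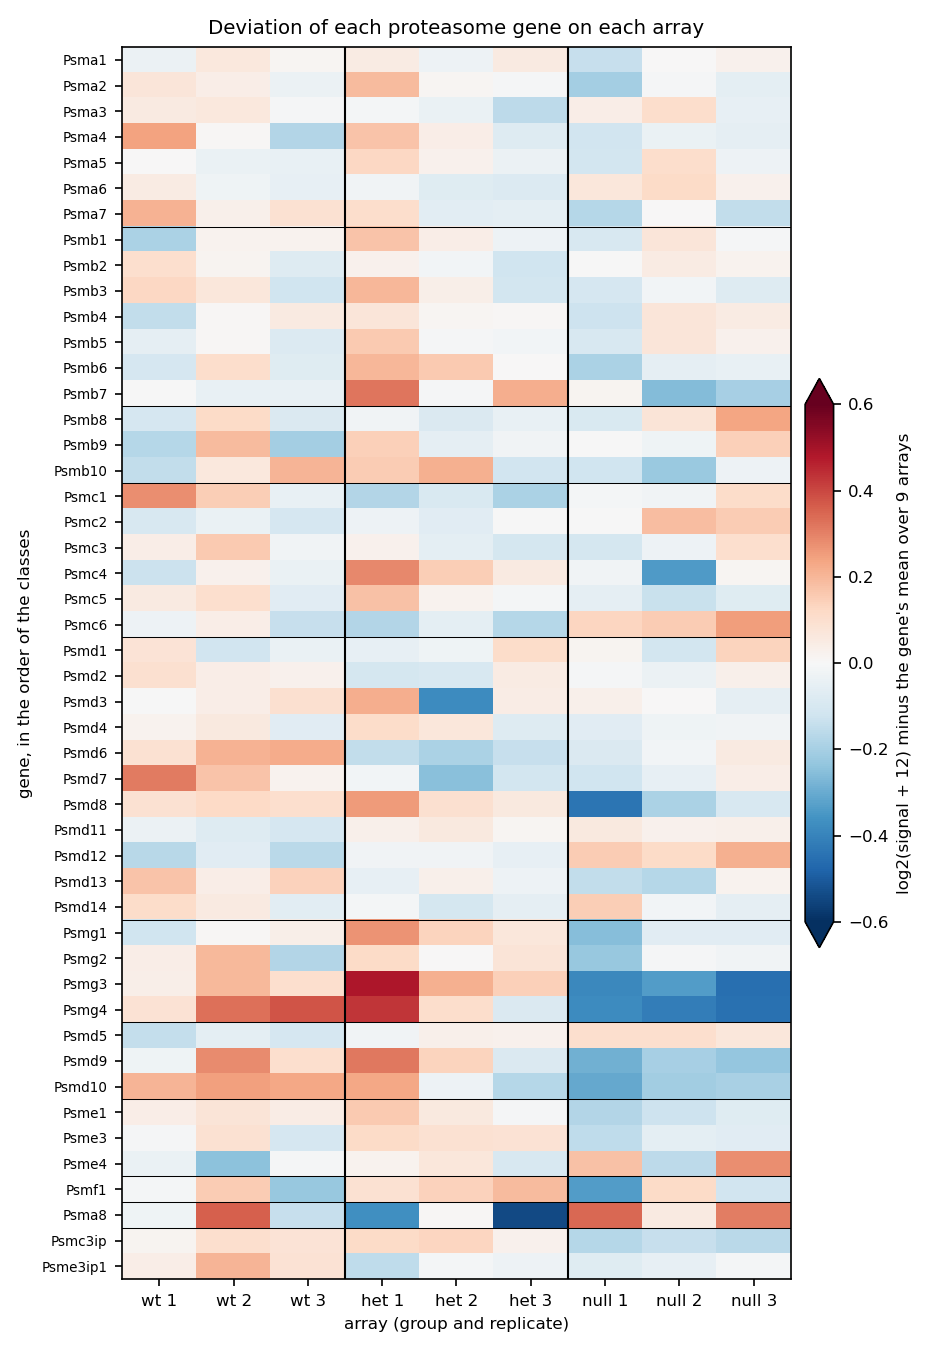
Deviation of log2(signal + 12) from the mean over 9 arrays for each of the 48 tested proteasome genes, by array, with colours cut at 0.6 in either direction and lines between classes and genotypes. The rows of Psmg3, Psmg4 and Psmd10 are below 0 on all 3 null arrays, as are, among others, those of Psmd8, Psmd9 and Psmc3ip. Some 20S rows are too, such as Psma2 and Psmb6, at -0.0074 and -0.054 on null replicate 2, beside -0.34 for Psmg3. The median deviation of the 14 ring genes was highest on heterozygous replicate 1, at 0.14.

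The members' shared shifts by array were small. The median deviation of the 48 genes from their 9-array means ran from -0.096 on null replicate 1 to 0.11 on heterozygous replicate 1. For the 14 ring genes the same 2 arrays were the extremes, at -0.11 and 0.14. For the 17 cap genes the range was -0.058 to 0.052, and the 12347 genes tested had medians between -0.044 and 0.033.

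Proteins that work with the proteasome were read from lists outside the symbol rule. Of 12 tested associated proteins 3 were lower and 0 higher in null against wild type, where 8.09% of all genes were called lower and 7.6% higher. Centring on array medians gave 2 lower and 1 higher. They were Sem1, a small cap subunit, at -0.46 (SE 0.10, adjusted p = 0.0074), Pomp, the maturation chaperone of the core, at -0.41 (SE 0.11, adjusted p = 0.0208), and Akirin2, which brings proteasomes into the nucleus, at -0.32 (SE 0.073, adjusted p = 0.00968). Pomp read 959, 877 and 852 on the wild-type arrays, 876, 799 and 840.1 on the heterozygous arrays and 545, 775 and 708 on the null arrays. The null arrays were lowest, and the call was lost without wild-type replicate 1 or null replicate 1 (adjusted p = 0.0758 to 0.0766). It was also lost with centring on array medians (adjusted p = 0.0563) and without the intensity trend in limma (adjusted p = 0.0777). Sem1 read 1902, 2105 and 2124 on the wild-type arrays, 2718, 2039.9 and 2092 on the heterozygous arrays and 1581, 1501 and 1361 on the null arrays, with null arrays below all others. Its call was lost without the intensity trend in limma (adjusted p = 0.0501). Akirin2 was lost with all probe sets averaged, at -0.24 (adjusted p = 0.333).

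The deubiquitinase genes of the cap, Usp14 and Uchl5, were at 0.40 (SE 0.14, adjusted p = 0.0718) and 0.15 (SE 0.07, adjusted p = 0.178) and did not pass. Among 11 tested shuttle and segregase genes 1 was higher and 0 lower, where 7.6% of all genes were called higher: Rad23b, a shuttle for ubiquitinated proteins, at 0.36 (SE 0.078, adjusted p = 0.00646). Vcp, the segregase, was at -0.11 (SE 0.075, adjusted p = 0.373). The only ubiquitin or activating enzyme gene with a probe set of its own was Uba6, an activating enzyme, which rose by 0.68 (SE 0.082, adjusted p = 0.000117) and in null against heterozygous by 0.51. The latter call was lost with all probe sets averaged, at 0.15 (adjusted p = 0.405). It read 572, 646 and 578 on the wild-type arrays, 619.9, 688 and 717 on the heterozygous arrays and 967, 945 and 977 on the null arrays, and the null arrays stood above all others.

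Of 12 tested regulators of proteasome gene transcription 2 were higher and 1 lower in null against wild type, beside 7.6% and 8.09% of all genes. The counts were the same in null against heterozygous. Nfe2l1 itself was at -0.28 (SE 0.12, adjusted p = 0.143), with null values below the wild-type values and no call. Nfe2l2 (Nrf2), its relative that binds the same element, rose by 0.48 (SE 0.074, adjusted p = 0.000713), though with all probe sets averaged it gave 0.035 (adjusted p = 0.859). Bach1, a repressor at that element, rose by 0.70 (SE 0.079, adjusted p = 6.05e-05), and by 0.45 with all probe sets averaged. Mafg, the small partner of all 3, was at -0.54 (SE 0.11, adjusted p = 0.00578). Ngly1, the enzyme that activates Nrf1 protein, was at -0.29 (SE 0.11, adjusted p = 0.0787). Of the 5 members with the element's core printed above, Psmd12 was called higher in null against wild type, Psmc6 higher in null against heterozygous, and Psmb5, Psmb6 and Psmd9 were not called in any comparison.

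**Figure D5:**
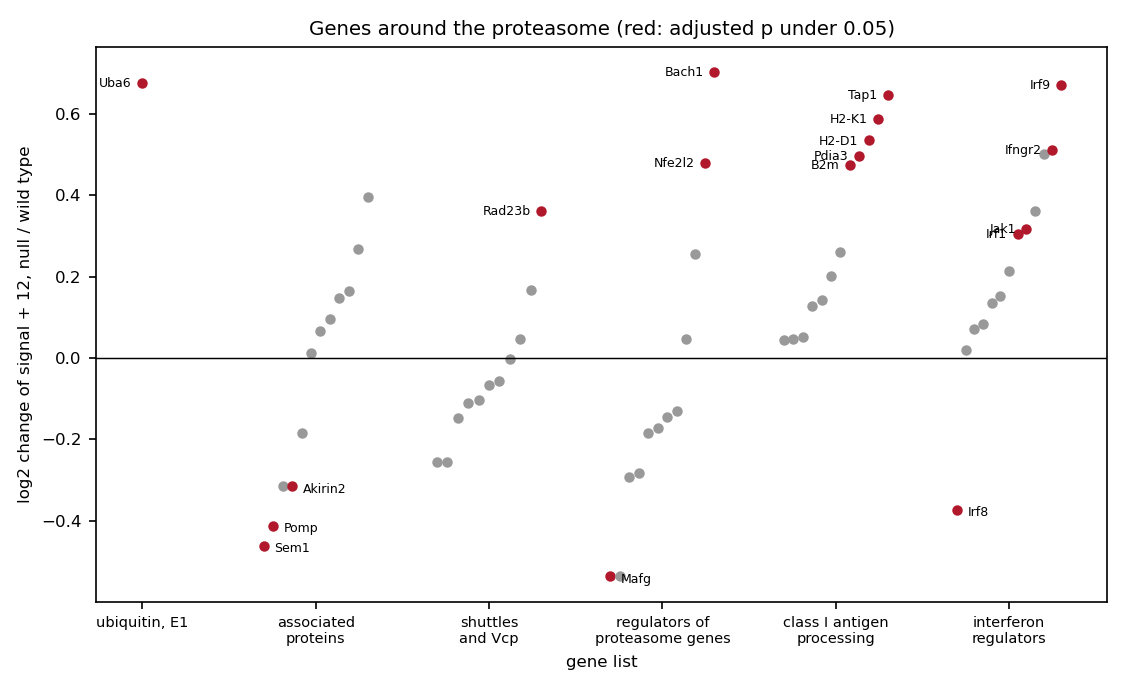
Change in null against wild type on the log2(signal + 12) scale for each tested gene of 6 lists around the proteasome, each point 1 gene, sorted within its list, with red and a name for an adjusted p under 0.05. All 12 class I genes lie above 0 and 5 of them are red, while the 3 red associated proteins lie below 0.

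Markers of other cells moved with genotype in part. Among all genes 8.09% were called lower in null and 0.697% lower in heterozygous against wild type. Of 11 tested macrophage and dendritic markers 2 were lower in null against wild type, H2-Aa at -1.37 (SE 0.22, adjusted p = 0.000797) and H2-Eb1 at -0.92 (SE 0.17, adjusted p = 0.00227). The summed signal of the 12 on the array was 521.8 to 702 in wild type, 581 to 735 in heterozygous and 445 to 514 in null samples. Of 7 neutrophil markers Ngp and Ltf were lower in null, at -2.12 and -2.09, and in heterozygous against wild type 3 were lower and 0 higher. Their sum was 3986 to 7445, 2746 to 5032 and 2417 to 8797 in the same order. Of the GMP markers Fcgr3 was higher, at 0.37 (SE 0.085, adjusted p = 0.00959), a call lost without the intensity trend in limma (adjusted p = 0.0549). Csf3r was lower, at -0.38 (SE 0.097, adjusted p = 0.0182). That call was lost without wild-type replicate 2 or 3 or null replicate 3 (adjusted p = 0.0514 to 0.0526, with 0.0526 for wild-type replicate 2). It was also lost with centring on array medians (adjusted p = 0.0521). Klrd1, the only tested marker of T and NK cells, was dim and lower, at -0.65 (SE 0.20, adjusted p = 0.042), a call lost in 12 of the 22 alternatives (adjusted p = 0.138 without wild-type replicate 2), and the sum of the 6 on the array was at most 42.2. For the 7 B lymphoid and the 6 erythroid markers limma called 0 of 3 and 0 of 4 tested. The part of any of these cells in the falls of Psmg3, Psmg4, Psmd10 and Psmd8 or in the rise of the class I genes was not tested, and in sorted bulk samples fewer cells of a type and less RNA per cell cannot be told apart.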

How the data were processed

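RNA of sorted EYFP-positive GMPs was hybridised to 9 Affymetrix arrays, 3 for each genotype in the labels. The deposited intensity values are linear MAS5 signals, per the submitters' processing notes, with no version or settings given in the sources used here. The trimmed mean (2% off each end) was 100 on every array, so the values hold no shift common to all transcripts. Detection calls and scanner files were not used here. Of the 45101 probe sets 64 were controls. Platform annotation gave 34945 probe sets 1 symbol, 932 several and 9160 none. Through Entrez IDs 34741 matched RefSeq and 0 symbols changed.

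The brightest probe set by mean log2(signal + 12) stood for each gene. A gene entered the test if its mean was at or above the 40th percentile of the non-control probe sets, a signal of about 8.49. limma 3.58.1 in R 4.3.3 (lmFit, eBayes with an intensity trend) was fitted on all 9 arrays with genotype as the only factor. Benjamini-Hochberg adjustment ran over 12347 genes. The number of arrays limits the precision. In simulated data for null against wild type, with 12347 genes of which 200 were changed, 84% of 2-fold and 39% of 1.5-fold changes were recovered. In the data themselves 1937 genes were called in this comparison. The adjusted threshold depends on how many genes change, so these shares need not hold there.

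The text names every member, gives all arrays for members called and for Psmb5 to Psmb10, and names up to 4 called genes of each other list by smallest p in null against wild type. Others were named after their values were seen, namely Tap1, Tap2, Irf8, Nlrc5, Usp14, Uchl5, Vcp, Nfe2l1, Ngly1 and bright or absent markers, and the arrays of Psma6 and Psma7 were added in the same way. The members and lists were chosen with earlier results of these data known. Alternatives changed the pseudocount, filter, scaling, probe set rule, variance prior, arrays fitted, array weights and replicate block, and left out each array in turn.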

Additional observations from a re-analysis of the deposited data

How the results depend on the processing

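For null against wild type the count of 5 called members became 9 with quantile normalization (1 higher, 8 lower) and 3 without the intensity trend, and ran from 4 to 6 when single arrays were left out. For heterozygous against wild type the count of 1 became 0 without the filter on dim genes, with the mean of all probe sets and without the intensity trend, and ran from 0 to 1 when single arrays were left out. For null against heterozygous the count of 7 became 4 with the mean of all probe sets and 2 without the intensity trend, and ran from 2 to 7 when single arrays were left out. Centring each array on its median moved the median change of the members to 0.0013 in null against wild type and to 0.0037 in null against heterozygous. The direction of Psmd6 in heterozygous against wild type turned with the mean of all probe sets, to 0.022 (limma adjusted p = 0.947). The causes were not tested.

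The replicate numbers do not pair the arrays: residuals of same-numbered arrays correlated at -0.027 to 0.14, not above 0.1 in every pair. With the replicate block the counts were 5, 1 and 6, and Psmg1 lost its call in null against heterozygous (limma adjusted p = 0.0529). In simulation 1.5-fold changes were recovered less often than 2-fold changes.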
